A study of Mus musculus with 30 samples.

Results

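Small leucine-rich proteoglycans are secreted matrix proteins with a short core built of leucine-rich repeats, most of which carry chondroitin, dermatan or keratan sulfate chains. They bind collagen fibrils and set their spacing and thickness, and several of them hold growth factors of the TGF-beta and BMP families in the matrix. In bone they belong to the matrix that osteoblasts lay down, and in skeletal muscle to the connective tissue around the fibers. The transcripts of 8 of their genes were followed here: the class I members *Dcn* (decorin), *Bgn* (biglycan) and *Aspn* (asporin), the class II members *Fmod* (fibromodulin), *Lum* (lumican), *Prelp* and *Omd* (osteomodulin), and the class III member *Ogn* (osteoglycin). The array holds 19 probe sets that the platform table assigns to 1 of these symbols alone, out of 45101 probe sets, and each gene was read from its brightest probe set, which left 8 genes of the 18194 represented this way.

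The cells were C2C12, a mouse myoblast line that forms myotubes in low serum and turns towards osteoblasts with BMP2. C2C12-pMirn378 cells carry a lentiviral miR-378 precursor construct with copGFP, and C2C12-pMirn0 control cells carry the parent vector with copGFP. Each line is 1 pool of transduced cells sorted for copGFP, so that line and pool cannot be told apart, and mature miR-378 was not measured here. RNA was taken at d0, and at d3 and d6 of culture in differentiation medium without BMP2 (untreated) or with 300 ng/ml BMP2, which gives 10 groups of 3 arrays, 30 arrays in all. Values are intensities on the linear scale, with no detection call. The median of all values was 76.5, and a value near or below it has a poorly defined ratio: the median SD of log2 values between replicates was 0.14 in the brighter and 0.85 in the dimmer probe sets. A level of 1 gene was not set against that of another, since probe sets differ in affinity.

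All 5 myoblast markers, *Myod1* among them, had a group mean above the median in each of the 10 groups. In C2C12-pMirn0 cells the summed level of the 8 muscle markers was 28038 to 28493 at d0, 115714 to 147310 in untreated cells at d3 and d6, and 14861 to 22618 with BMP2. The 5 measured osteoblast markers summed to 210 to 307 in C2C12-pMirn0 cells at d0 and without BMP2 and to 3045 to 3963 with BMP2. In C2C12-pMirn378 cells with BMP2 they summed to 6510 to 8349. In C2C12-pMirn0 cells BMP2 had all 8 muscle markers called lower on both days, and 4 of the 5 osteoblast markers higher at d3 and 3 at d6. In C2C12-pMirn0 cells at d3 and d6 the 4 measured adipocyte markers summed to 2900 to 4794 without and 10109 to 13520 with BMP2, the 6 cartilage markers to 526 to 634 and 1016 to 1383, and the 4 tendon markers to 554 to 870 and 99.8 to 168. At d0 in C2C12-pMirn0 cells the adipocyte markers summed to 1211 to 1416, the cartilage markers to 1255 to 1360 and the tendon markers to 408 to 510. With BMP2 at d6 against d0 in that line, *Col2a1* was called higher (log2 5.32) and *Sox9* lower (-0.92), and the other cartilage markers were not called. The adipocyte markers in C2C12-pMirn378 cells summed to 4094 to 7528 without and 13142 to 15113 with BMP2. Sums of the 4 endothelial and 4 macrophage markers stayed at or below 194 and 371 in all 30 arrays. These are whole cultures, in which more cells of a type and more RNA per cell cannot be told apart, and the part of these cell types in the results below was not tested.

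The family lies in clusters of neighbouring genes. In the RefSeq gene table (GRCm38.p6), *Prelp* and *Fmod* are neighbours on chromosome 1, *Dcn* and *Lum* on chromosome 10, and *Aspn*, *Omd* and *Ogn* on chromosome 13, with 0 protein-coding genes between them, while *Bgn* stands alone on chromosome X. The 250 bases before the RefSeq start are shown for the 4 members with a promoter entry and large BMP2 ratios, and for *Bgn*, the member that was not called for BMP2. They are chr1:133921402-133921651 (minus strand), chr1:134037004-134037253 (plus strand), chr13:49544193-49544442 (plus strand), chr13:49582212-49582461 (plus strand) and chrX:73483351-73483600 (plus strand) of GRCm38.p6, each written 5′ to 3′ on the strand of its gene. Capitals mark TATAAA and the RUNX core TGNGGT, each searched on both strands.
Prelp: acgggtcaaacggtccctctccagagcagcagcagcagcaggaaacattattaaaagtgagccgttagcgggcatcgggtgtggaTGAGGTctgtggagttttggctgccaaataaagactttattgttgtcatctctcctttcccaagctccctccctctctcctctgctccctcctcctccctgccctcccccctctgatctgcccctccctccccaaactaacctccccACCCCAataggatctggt
Fmod: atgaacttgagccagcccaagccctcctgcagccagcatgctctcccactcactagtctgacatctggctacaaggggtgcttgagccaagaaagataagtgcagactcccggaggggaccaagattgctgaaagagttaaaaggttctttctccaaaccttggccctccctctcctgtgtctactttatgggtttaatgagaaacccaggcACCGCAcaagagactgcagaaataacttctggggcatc
Aspn: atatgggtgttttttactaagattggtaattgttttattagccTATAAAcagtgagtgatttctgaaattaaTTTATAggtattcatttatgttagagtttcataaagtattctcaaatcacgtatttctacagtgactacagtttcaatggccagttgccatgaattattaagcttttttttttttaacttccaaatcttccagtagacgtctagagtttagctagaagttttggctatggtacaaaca
Omd: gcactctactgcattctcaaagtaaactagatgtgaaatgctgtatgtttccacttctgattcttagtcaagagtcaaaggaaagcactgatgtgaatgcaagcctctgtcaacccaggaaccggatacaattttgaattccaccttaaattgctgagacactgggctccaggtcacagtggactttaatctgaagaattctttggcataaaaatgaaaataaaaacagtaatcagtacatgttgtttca
Bgn: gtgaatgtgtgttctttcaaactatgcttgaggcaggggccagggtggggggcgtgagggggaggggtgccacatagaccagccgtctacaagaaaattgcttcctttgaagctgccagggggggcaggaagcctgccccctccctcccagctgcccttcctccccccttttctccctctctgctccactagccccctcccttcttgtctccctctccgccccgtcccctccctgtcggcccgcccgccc
RUNX factors drive osteoblast genes. The RUNX core was found in *Prelp*, starting at -165 and -18, and in *Fmod*, starting at -38, but not in the windows of *Aspn*, *Omd* and *Bgn*, and 40.1% of the 32851 promoters in the table hold it. TATAAA was found in *Aspn* only among these 5, at -207 and -178, and in 12.4% of all promoters. The SMAD element AGAC was found in all 5, from 1 match in *Omd* to 4 in *Fmod*, and in 82.9% of all promoters. Its match at -161 in *Prelp* overlaps the RUNX match at -165. The GC-rich SMAD element GGCGCC (9.59% of all), the homeobox core TAATTA (4.84%) and the AP-1 site TGANTCA (6.75%) were found in none of the 5. The E-box CANNTG (66.2%) had 1 match each in *Fmod*, *Aspn* and *Bgn* and 0 in *Prelp* and *Omd*. The window of *Ogn*, the gene with the smallest called BMP2 ratio, holds a RUNX core at -65, overlapping TATAAA matches at -229 and -227, 3 E-boxes and 0 AGAC. GC content ran from 38.4% in *Omd* through 51.2% in *Fmod* and 55.6% in *Prelp* to 64.4% in *Bgn*, against a median of 52.4% over all promoters, and that of *Aspn* was lower still than in *Omd*. The start that the table gives for *Prelp* lies inside the span of the gene, so that other transcripts may start elsewhere.

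**Figure D1:**
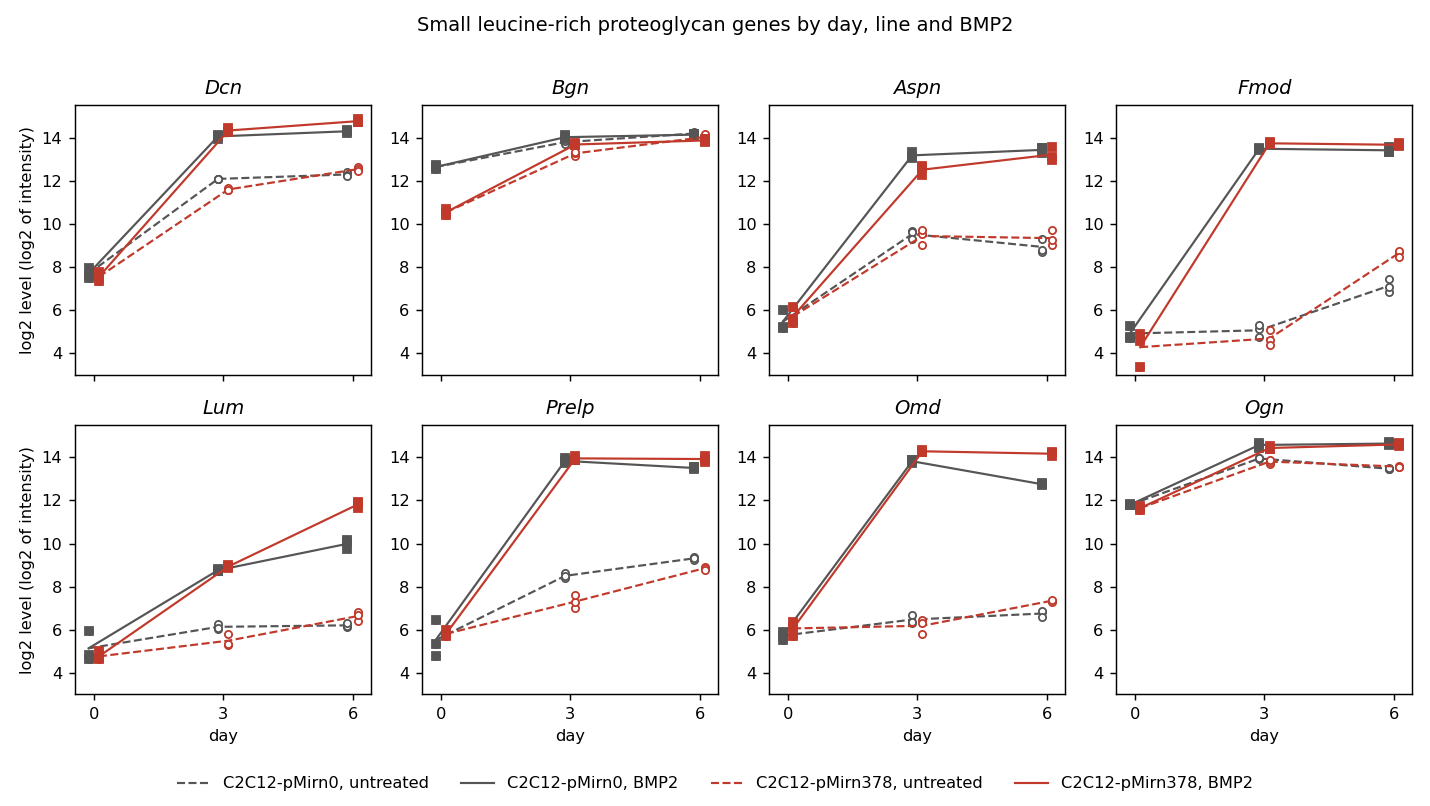
Log2 level (log2 of the intensity) of each gene on the vertical axis against day on the horizontal axis, with points for single arrays, lines for means of 3 arrays, grey for C2C12-pMirn0, red for C2C12-pMirn378, solid lines for BMP2 and dashed lines for untreated cells; the d0 arrays start both lines and are drawn as squares. Fmod and Omd with BMP2 lie far above the untreated arrays at d3 and d6, Bgn lies close together under both treatments, and Bgn at d0 is lower in C2C12-pMirn378 cells.

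The comparison of BMP2-treated with untreated cells asks which members follow the osteogenic treatment. In C2C12-pMirn0 cells 7 of the 8 genes were called higher with BMP2 at d3 and 7 at d6, with none called lower. A call is an adjusted p (limma, Benjamini-Hochberg over all probe sets) under 0.005 with a log2 ratio beyond 0.6. Among all 18194 genes 11.1% were called higher at d3 and 10.9% at d6. The median log2 ratio of the 8 genes was 3.14 at d3 and 3.99 at d6, against 0.05 and 0.08 over all genes.

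Among the class I members, *Dcn* encodes a collagen-binding proteoglycan that also binds TGF-beta. Its intensity in C2C12-pMirn0 cells was 4325, 4327 and 4349 in the untreated and 17910, 17498 and 15642 in the BMP2-treated arrays of d3. At d6 it was 5333, 4875 and 4818 without and 19929, 21150 and 19139 with BMP2. No untreated array reached a treated array at either day, and the log2 ratio was 1.97 ± 0.11 (SE, n = 3 against 3; adjusted p 8.50e-13) at d3 and 2.00 ± 0.11 (adjusted p 5.89e-13) at d6, about 3.92-fold and 4.01-fold. A second, dim *Dcn* probe set had log2 ratios of 1.82 at d3 and 0.93 at d6, and the latter was not called (adjusted p 0.148). *Aspn*, a member without the usual glycosaminoglycan attachment that binds collagen and TGF-beta, was at 806, 782 and 631 without and 8740, 10460 and 8620 with BMP2 at d3. Its untreated arrays at d6 were at 410, 445 and 636 and its treated arrays at 11696, 9899 and 11546. The groups were far apart on both days, with ratios of 12.6-fold (log2 3.65 ± 0.25, adjusted p 5.98e-11) and 22.6-fold (log2 4.50 ± 0.25, adjusted p 1.39e-12).

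*Bgn*, the closest relative of *Dcn* and abundant in bone matrix, was the exception. Its arrays in C2C12-pMirn0 cells read 14397, 13454 and 14575 without and 17727, 16393 and 15680 with BMP2 at d3, and 19493, 18582 and 17980 without and 17108, 18644 and 18263 with BMP2 at d6. The groups did not overlap at d3 and overlapped at d6. Its log2 ratio was 0.23 (95% interval 0.06 to 0.40, adjusted p 0.0408) at d3 and -0.05 (adjusted p 0.694) at d6, both below the size of a call, and its other 2 probe sets gave 0.31 and 0.22 at d3 and -0.04 and -0.01 at d6.

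The class II genes *Fmod* and *Omd* had the largest ratios. *Fmod*, which binds collagen fibrils in tendon and cartilage, read 34.9, 40.01 and 26.5 in untreated C2C12-pMirn0 cells at d3, below the median of all values, and 11151, 11662 and 11499 with BMP2. At d6 the untreated arrays had come up to 116, 173 and 133, while the treated arrays stood at 10147, 12110 and 10462. The log2 ratio was 8.42 ± 0.27 (adjusted p 7.44e-17) at d3 and 6.29 ± 0.27 (adjusted p 1.05e-14) at d6. Because the untreated level at d3 was dim, the size of that ratio is loose: it was 7.84 with values under 50 set to 50, and 6.18 to 9.80 over the other 5 *Fmod* probe sets, all called higher. *Omd*, a keratan sulfate proteoglycan of mineralized tissue that osteoblasts make as they mature, went from 104, 80.7 and 83.5 to 14832, 14865 and 13690 at d3, 162-fold (log2 7.34 ± 0.15, adjusted p 1.09e-19). At d6 its untreated arrays were at 112, 116 and 96.9 and its treated arrays at 6891, 7092 and 6789, 64.1-fold (log2 6.00 ± 0.15, adjusted p 1.96e-18). In both *Fmod* and *Omd* every treated array lay far above every untreated array.

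*Prelp*, whose product links basement membranes to collagen, read 396, 336 and 359 without and 15801, 14604 and 13582 with BMP2 at d3, 40.3-fold (log2 5.33 ± 0.24, adjusted p 3.16e-14). At d6 the arrays were at 655, 611 and 650 without and 11136, 11863 and 11889 with BMP2, 18.2-fold (log2 4.19 ± 0.24, adjusted p 1.95e-12). Its second, dimmer probe set gave larger log2 ratios of 8.31 and 5.86, and the second *Aspn* probe set 4.20 and 4.74. Without BMP2 that *Prelp* probe set read only 9.0 to 20.4 at d3 and 18.8 to 98.3 at d6, so the sizes of its ratios are loose. *Lum*, the lumican that orders fibrils in the cornea, read 421, 456 and 428 at d3 and 1080, 1141 and 855 at d6 with BMP2. Without BMP2 it lay near the median of all values, at 78.0, 66.5 and 67.2 and at 70.6, 71.9 and 79.6. Its ratio was 6.18-fold (log2 2.63 ± 0.22, adjusted p 2.13e-09) at d3 and 13.8-fold (log2 3.78 ± 0.22, adjusted p 3.72e-12) at d6. *Ogn*, the class III member, was bright in all groups and had the smallest called ratio: 15757, 15843 and 15803 without and 26373, 24624 and 22331 with BMP2 at d3, and 11239, 11239 and 11636 without and 24281, 27202 and 25101 with BMP2 at d6. These are 1.54-fold (log2 0.63 ± 0.07, adjusted p 2.33e-07) and 2.24-fold (log2 1.17 ± 0.07, adjusted p 7.35e-12). The *Ogn* call at d3 sits at the edge of the size threshold: the log2 ratio was 0.52 when arrays were scaled by the median of the brighter probe sets, 0.57 without the first d3 BMP2 array, and in a fit of these 6 arrays alone the adjusted p was 0.0105.

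In C2C12-pMirn378 cells BMP2 gave 7 of 8 genes called higher at d3, where 13.3% of all genes were, and 7 of 8 at d6, where 10.7% were, and again *Bgn* was the gene not called. The log2 ratios at d3 were 9.05 for *Fmod*, 8.09 for *Omd*, 6.64 for *Prelp*, 3.44 for *Lum*, 3.08 for *Aspn*, 2.73 for *Dcn* and 0.63 for *Ogn*, each with an adjusted p of 1.75e-07 or less. The untreated arrays of *Fmod* (20.8 to 33.4) and *Lum* (39.6 to 56.7) lay below the median of all values at d3. Those of *Omd* read 55.9 to 86.7, so the sizes of these ratios are loose. At d6 they were 6.82 for *Omd*, 5.18 for *Lum*, 5.06 for *Prelp*, 5.02 for *Fmod*, 3.88 for *Aspn*, 2.22 for *Dcn* and 1.03 for *Ogn*. The call of *Ogn* at d3 was lost without the first BMP2 array (log2 0.59), without the first untreated array (0.58), with its second probe set (0.59), with the scaling by the median (0.53) and in a fit of these 6 arrays alone (adjusted p 0.0101). *Bgn* was at 0.41 (adjusted p 3.86e-04, under the 0.6 minimum) at d3 and at -0.16 (adjusted p 0.161) at d6.

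**Figure D2:**
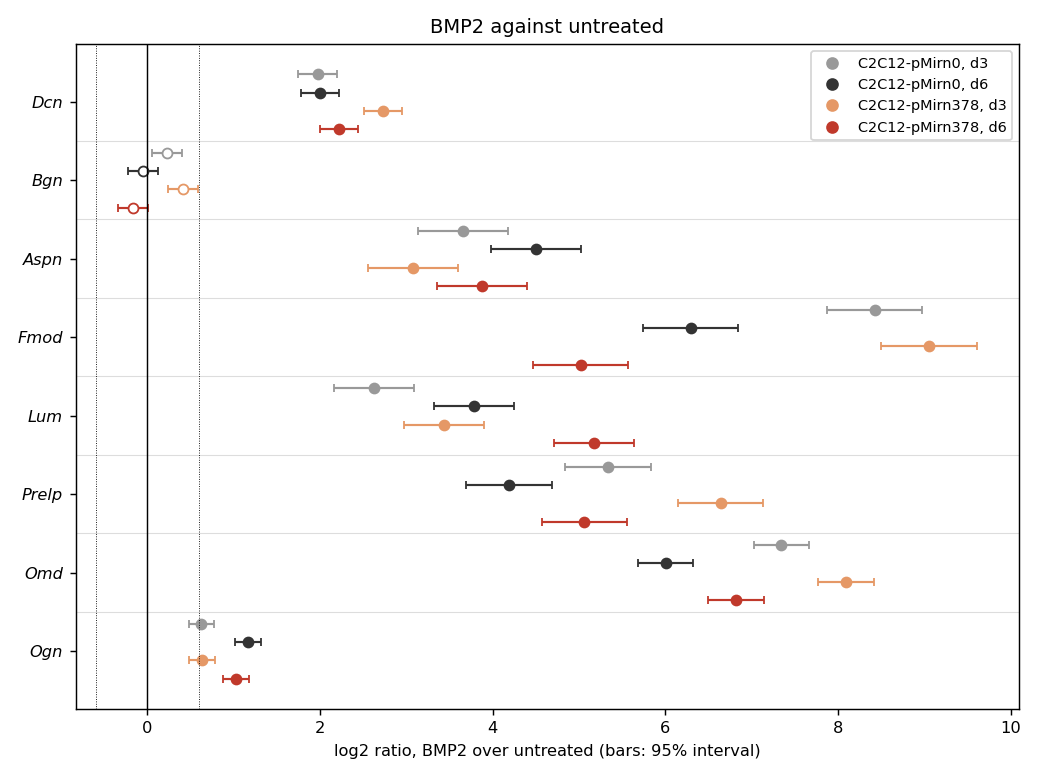
Log2 ratio of BMP2-treated over untreated cells on the horizontal axis for each gene, with 95% intervals from limma, grey and black for C2C12-pMirn0 at d3 and d6, orange and red for C2C12-pMirn378 at d3 and d6; filled points were called and dotted lines mark the 0.6 minimum. All 4 Bgn points are open and lie between -0.16 and 0.41, and the Fmod points at d3 lie at 8.42 and 9.05. Untreated Fmod at d3 was below the median of all values in both lines.

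The untreated cultures show what happened to the family during myogenic differentiation, compared with d0. In C2C12-pMirn0 cells 7 of 8 genes were called higher at d3 and 8 of 8 at d6, while 11.5% and 12% of all genes were. In C2C12-pMirn378 cells 5 of 8 were called higher at d3 and 8 of 8 at d6, against 12.5% and 13.2% of all genes. The d3 and d6 values of a line share the same d0 arrays. *Dcn* was at 182, 248 and 195 in C2C12-pMirn0 cells at d0, so its untreated level at d3 was 21.0-fold (log2 4.39 ± 0.11, adjusted p 1.80e-18) and at d6 24.2-fold higher. *Aspn*, at 35.5, 37.3 and 63.9 at d0, was 16.8-fold higher at d3 and 11.1-fold higher at d6. *Prelp*, at 40.3, 86.8 and 28.0 at d0, was 7.87-fold and 13.8-fold higher. These d0 arrays of *Aspn* and *Prelp* lay below the median of all values, except the *Prelp* array at 86.8, so the sizes of these ratios are loose. The second *Aspn* probe set rose less, from 59.8 to 76.7 at d0 to 394 to 515 at d3 and 370 to 431 at d6. *Ogn* and *Bgn*, bright from the start with 3504 to 3657 and 5930 to 6797 at d0, were 4.44-fold and 2.22-fold higher at d3 and 3.20-fold and 2.94-fold higher at d6.

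At d3 without BMP2 *Fmod*, *Omd* and *Lum* had smaller ratios to d0 than the other members. *Fmod* was not called at d3 (log2 0.15, adjusted p 0.744) and was 4.62-fold higher at d6 (adjusted p 3.92e-07). Its d0 arrays of 25.9 to 38.9 lay below the median of all values, so the size at d6 is loose. Its other probe sets ran from overlapping arrays (12.5 to 30.3 at d0, 20.5 to 51.0 at d6) to distant ones (5.18 to 9.41 and 35.9 to 50.2). *Omd* was 1.68-fold higher at d3 and 2.04-fold higher at d6, and *Lum* 1.99-fold (adjusted p 0.00101) and 2.09-fold (adjusted p 4.66e-04). The *Lum* calls rest on dim d0 arrays of 25.1, 61.5 and 28.5: with values under 50 set to 50 its log2 ratios were 0.39 and 0.46 in place of 1.00 and 1.07, under the minimum. Leaving out the first or the third d0 array gave *Lum* adjusted p values of 0.0126 and 0.0101 at d3 and of 0.00614 and 0.00511 at d6, and leaving out the first d3 untreated array 0.00685. The same d3 array left out took *Omd* at d3 to 0.00504, and fits of the compared arrays alone called neither gene at either day. *Prelp* at d3 was also lost in such a fit (adjusted p 0.00737) and with its second probe set (0.0495). In C2C12-pMirn378 cells the genes not called at d3 were *Lum* (log2 0.73, adjusted p 0.0122), *Fmod* (0.40, adjusted p 0.267) and *Omd* (0.12, adjusted p 0.588). *Bgn* had larger ratios there, 6.65-fold at d3 and 11.3-fold at d6, from a lower d0 mean of 1487 against 6369 in C2C12-pMirn0 cells. Its untreated means did not pass those of C2C12-pMirn0 cells, at 9876 against 14142 at d3 and 16737 against 18685 at d6, with overlapping arrays at d6.

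With BMP2 all 8 genes were called higher than at d0 in each line at d3 and d6, where 12.9% and 11.4% of all genes were called higher in C2C12-pMirn0 cells and 14.4% and 13.4% in C2C12-pMirn378 cells. In C2C12-pMirn0 cells at d6 the log2 ratios to d0 were 8.50 for *Fmod*, 7.98 for *Prelp*, 7.97 for *Aspn*, 7.03 for *Omd*, 6.60 for *Dcn*, 4.85 for *Lum* and 2.84 for *Ogn*, and *Bgn* was 2.83-fold higher. At d3 they were already 8.57 for *Fmod*, 8.31 for *Prelp*, 8.09 for *Omd*, 7.72 for *Aspn* and 6.36 for *Dcn*. *Lum* stood at 3.62 and was the gene furthest from its d6 value. The d0 arrays of *Fmod*, *Prelp*, *Aspn*, *Omd* and *Lum* in C2C12-pMirn0 cells were below the median of all values (76.5), except 1 *Prelp* array at 86.8, so these sizes carry the same looseness as above.

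Between d3 and d6 with BMP2, 2 of the 8 genes were called in C2C12-pMirn0 cells, 1 in each direction, where 3.61% of all genes were called. *Lum* rose 2.34-fold from 421, 456 and 428 to 1080, 1141 and 855 (adjusted p 6.29e-04). *Omd* fell from 14832, 14865 and 13690 to 6891, 7092 and 6789, a log2 ratio of -1.06 ± 0.15 (adjusted p 5.33e-05). Neither pair of groups overlapped, but without the second d6 array the adjusted p of *Lum* was 0.00507, and a fit of these 6 arrays alone gave 0.0284 for *Lum* and 0.0178 for *Omd*. In C2C12-pMirn378 cells 1 gene was called, where 7.84% of all genes were: *Lum* rose 7.35-fold, from 473, 514 and 483 to 3725, 3204 and 3900 (adjusted p 2.28e-09). *Omd* there read 20830, 19644 and 19273 at d3 and 18998, 17058 and 19229 at d6, so that every d6 array lay below every d3 array, with a log2 ratio of -0.11 (adjusted p 0.735). *Dcn* in that line read 22070, 19421 and 20230 at d3 and 29752, 26822 and 26786 at d6. These groups did not overlap either, and the log2 ratio of 0.43 ± 0.11 (adjusted p 0.00518) was under the minimum, while the second *Dcn* probe set gave -0.16 (adjusted p 0.892).

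A test of whether the lines differ in this change from d3 to d6, added after these values had been seen, called 1 of 8 genes, with 2.02% of all genes called. *Lum* rose further in C2C12-pMirn378 cells by a log2 difference of 1.65 ± 0.31 (adjusted p 0.00260). That call was lost in 10 of the 12 fits that left out 1 array, with adjusted p values of up to 0.0112. The log2 difference of *Omd* was 0.95 ± 0.22 (adjusted p 0.0136), which missed the threshold and passed it in 3 alternatives, with adjusted p values of 0.00223 to 0.00300.

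**Figure D3:**
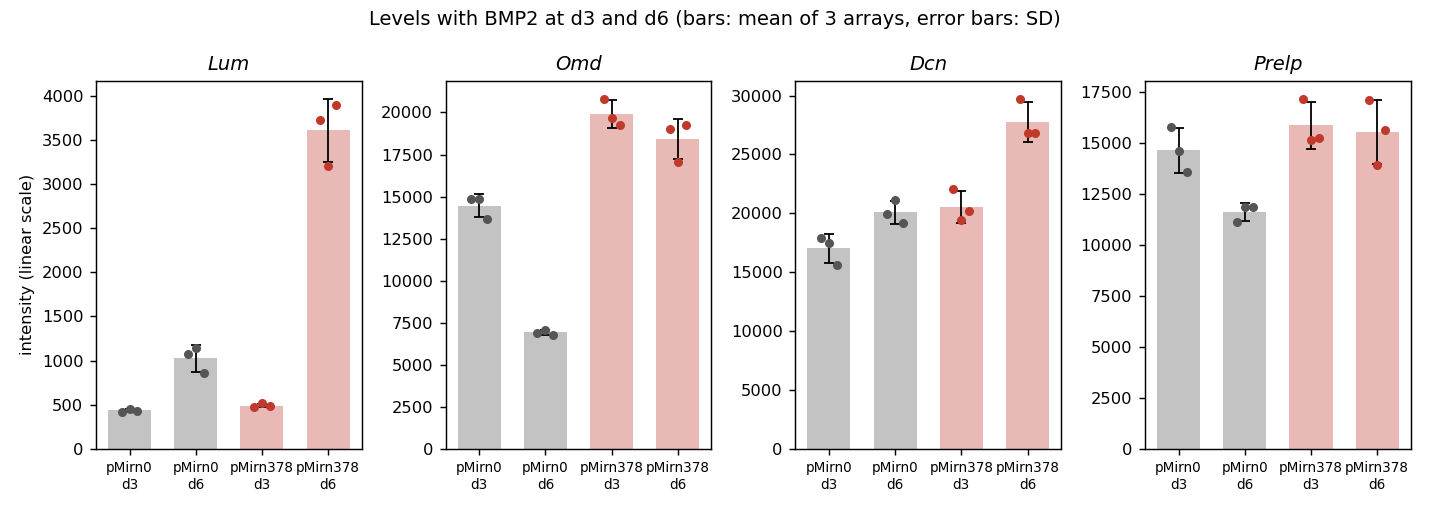
Intensity on the linear scale of Lum, Omd, Dcn and Prelp in cells treated with BMP2, with bars for means of 3 arrays, error bars for the SD and points for the arrays, grey for C2C12-pMirn0 and red for C2C12-pMirn378. Omd falls from a mean of 14462 to 6924 in C2C12-pMirn0 cells and stays at 19916 and 18428 in C2C12-pMirn378 cells, and Lum reaches 3610 in C2C12-pMirn378 cells at d6 against 1025 in C2C12-pMirn0 cells.

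The direct comparison of the lines asks what miR-378 overexpression went along with. At d0 1 of 8 genes was called, with 0.824% of all genes called. *Bgn* was 4.29-fold lower in C2C12-pMirn378 cells, with 1448, 1661 and 1353 against 6797, 6381 and 5930 in C2C12-pMirn0 cells (log2 -2.10 ± 0.08, adjusted p 4.41e-13). No array of one line came near the other, and the other 2 *Bgn* probe sets gave -2.05 and -2.15, both called. In a fit of these 6 arrays alone the adjusted p was 0.0558. Each of the later *Bgn* ratios was negative and below the size of a call: -0.52 (adjusted p 0.00106) at d3 and -0.16 (adjusted p 0.519) at d6 without BMP2, and -0.34 (adjusted p 0.00832) at d3 and -0.27 (adjusted p 0.0536) at d6 with it.

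Without BMP2 at d3, limma called 0 of 8 genes, with 0.72% of all genes called. At an unadjusted p under 0.05 there were 4 of the 8, beside 10.8% of all genes. *Prelp* was lowest relative to control, at 131, 156 and 197 against 396, 336 and 359 (log2 -1.19 ± 0.24, adjusted p 0.00925). Its groups did not overlap, and it was called in 5 alternatives, among them quantile normalization (adjusted p 0.00243). Another of them, values under 50 set to 50, left the log2 ratio at -1.19, since no array of these groups lay below 50. At d6 without BMP2 1 of 8 genes was called, with 0.247% of all genes called: *Fmod* was 2.88-fold higher, at 418, 432 and 354 against 116, 173 and 133 (log2 1.53 ± 0.27, adjusted p 0.00460). The arrays did not overlap, but the call was lost in each of the 6 fits without 1 of these arrays, with adjusted p values of 0.00745 to 0.0361. Over the other 5 *Fmod* probe sets the log2 ratio ran from 1.14 to 1.79, with 1 called.

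With BMP2 at d3, limma called 0 of 8 genes, where 4.38% of all genes were called. At an unadjusted p under 0.05 there were 4 of the 8, beside 27.7% of all genes. Members went in both directions. *Aspn* was lower in C2C12-pMirn378 cells by 0.66 in mean log2 level, past the minimum in size, at 4861 to 6644 against 8620 to 10460. It was called in none of the fits that left out 1 array (adjusted p 0.105 to 0.316). *Omd* was higher in that line, at 19273 to 20830 against 13690 to 14865. At d6 2 of 8 genes were called, both higher in C2C12-pMirn378 cells, where 2.85% of all genes were called in either direction. *Lum* was 3.54-fold higher, at 3725, 3204 and 3900 against 1080, 1141 and 855 (log2 1.82 ± 0.22, adjusted p 7.80e-06). *Omd* was 2.66-fold higher, at 18998, 17058 and 19229 against 6891, 7092 and 6789 (log2 1.41 ± 0.15, adjusted p 1.65e-06). The lines were apart in both genes, and both calls held without any 1 array, while a fit of these 6 arrays alone gave adjusted p values of 0.0242 and 0.0132. *Dcn* was 1.38-fold higher (29752, 26822 and 26786 against 19929, 21150 and 19139, adjusted p 0.00655), under the minimum. The log2 ratio was 0.42 (95% interval -0.08 to 0.91) for *Prelp*, 0.25 (-0.30 to 0.81) for *Fmod*, -0.04 (-0.19 to 0.11) for *Ogn* and -0.22 (-0.74 to 0.31) for *Aspn*. These intervals take their spread from all 10 groups, dim d0 arrays included. The arrays of the lines did not overlap in *Prelp* (13948 to 17108 against 11136 to 11889) and *Fmod* (12436 to 13554 against 10147 to 12110), and overlapped in *Ogn* and *Aspn*. The second *Prelp* probe set read 4744 to 6183 against 2541 to 2817, and the other *Fmod* probe sets also had higher means in C2C12-pMirn378 cells. Over the same arrays the summed muscle markers were 14861 to 16393 in C2C12-pMirn0 and 8974 to 10005 in C2C12-pMirn378 cells, and the summed osteoblast markers 3045 to 3442 and 6510 to 8349; their part in the line difference was not tested.

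**Figure D4:**
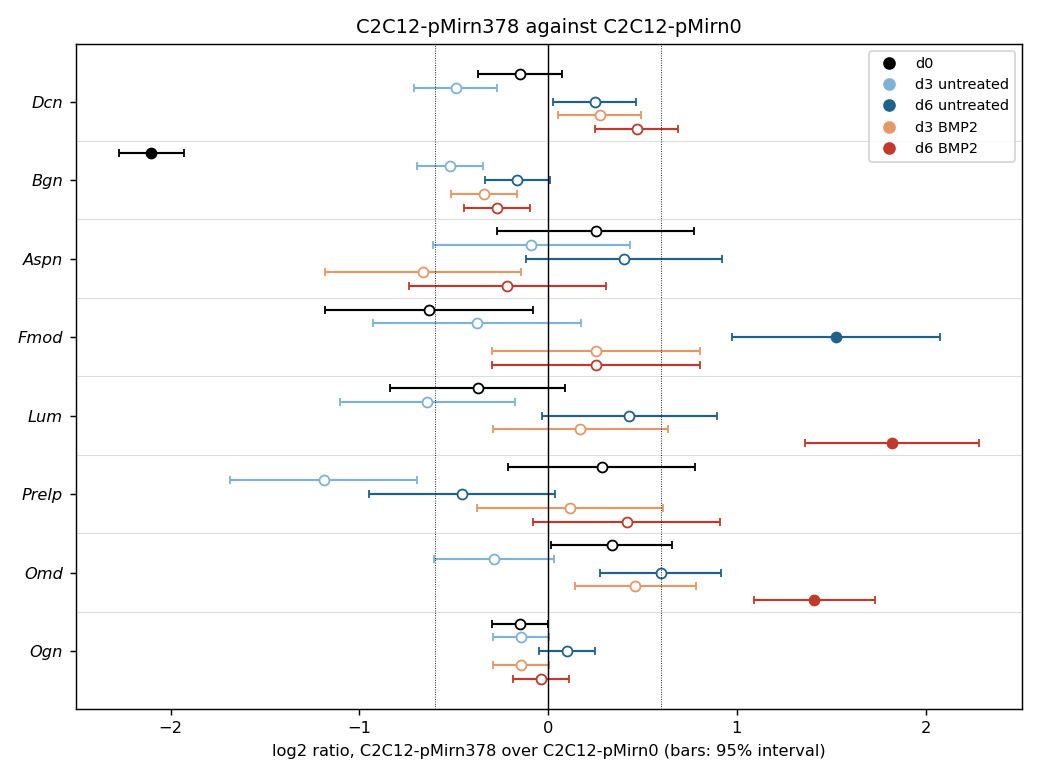
Log2 ratio of C2C12-pMirn378 over C2C12-pMirn0 cells on the horizontal axis for each gene at d0 (black), d3 and d6 untreated (light and dark blue) and d3 and d6 with BMP2 (orange and red), with 95% intervals from limma; filled points were called and dotted lines mark the 0.6 minimum. The filled points are Bgn at d0 (-2.10), Fmod at d6 untreated (1.53), and Lum (1.82) and Omd (1.41) at d6 with BMP2.

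Whether the BMP2 response itself differed between the lines was tested as an interaction. At d3 1 of 8 genes was called, with 2% of all genes called. *Dcn* responded more strongly in C2C12-pMirn378 cells, 6.65-fold against 3.92-fold, a log2 difference of 0.76 ± 0.15 (adjusted p 0.00359). Its untreated arrays were lower (3003, 3219 and 3045 against 4325, 4327 and 4349) and its treated arrays higher (22070, 19421 and 20230 against 17910, 17498 and 15642) in that line. The call was lost in all 12 fits that left out 1 array, with adjusted p values of 0.00603 to 0.0141, with the replicate number as a block (0.00524), with its second probe set (0.165) and in a fit of these 12 arrays alone (0.0205). *Prelp* had a log2 difference of 1.30 ± 0.34 (adjusted p 0.0287) and was called with values under 50 set to 50 (6.37e-04). That setting left the difference at 1.30, since no *Prelp* array of the compared groups lay below 50. What changed was the adjusted p, whose spread is estimated over all groups. At d6 limma called 0 of 8 genes, with 2.02% of all genes called. An unadjusted p under 0.05 was reached by 4 of the 8, beside 18.9% of all genes. *Lum* came nearest, with a log2 difference of 1.39 ± 0.31 (adjusted p 0.0115), and was called in 5 alternatives. Among these, setting values under 50 to 50 left its difference at 1.39. *Fmod* had a log2 difference of -1.27 ± 0.37 (adjusted p 0.0619), its untreated level at d6 being higher in C2C12-pMirn378 cells. It was called lower with an offset of 16 (0.00358) and with values under 50 set to 50, which left the difference at -1.27.

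Over the 10 groups the order of levels put the 4 BMP2 groups on top for 7 of the 8 genes. *Dcn* was highest in C2C12-pMirn378 cells at d6 with BMP2 (mean 27787 ± 1702, SD, n = 3) and lowest in the same line at d0 (188 ± 28.4), and 2 of its 9 pairs of neighbouring groups overlapped. The order of *Lum* ran from 3610 ± 362 to 27.4 ± 4.0, with 3 overlapping neighbours, and that of *Omd* from 19916 ± 814 in C2C12-pMirn378 cells at d3 with BMP2 to 53.3 ± 7.2 in C2C12-pMirn0 cells at d0, with 4. *Fmod* ran from 13622 ± 373 to 21.3 ± 9.9 and *Prelp* from 15877 ± 1146 to 51.7 ± 31.0, with 5 and 3 overlapping neighbours. *Aspn* was highest in C2C12-pMirn0 cells at d6 with BMP2 (11047 ± 997) and lowest in that line at d0 (45.6 ± 15.9), with 6. *Ogn* spanned only 2.99 on the log2 scale, from 25528 ± 1506 to 3211 ± 238, with 3. *Bgn* alone had an untreated group on top, C2C12-pMirn0 cells at d6 (18685 ± 761), and its 4 highest groups could not be told apart in order, since each overlapped the next.

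Patterns over the 30 arrays were compared by Pearson's r of log2 levels, as a description: all genes share the same arrays and the same 10 groups, so high values are common. Among the members, *Ogn* and *Dcn* were most alike (r 0.98), followed by *Fmod* and *Omd* (0.97), and *Bgn* and *Omd* least (0.44). *Aspn* and *Prelp* sat between, with r of 0.96 and 0.91 to *Dcn* and 0.89 and 0.96 to *Fmod*. The genome neighbours *Prelp* and *Fmod* had an r of 0.96, *Aspn* and *Omd* 0.89, *Dcn* and *Lum* 0.83 and *Omd* and *Ogn* 0.75. *Aspn* and *Ogn*, which have *Omd* between them, had an r of 0.95. Among 11981 genes with a group mean above the median, those nearest to *Omd* were *Rgs3* (r 0.99), *Sgce* and *Alpl*, the alkaline phosphatase of osteoblasts (both 0.99). Nearest to *Dcn* were *Islr*, *Txnip* and *Pltp* (0.99 each), to *Fmod* *Epdr1*, *Sfrp2* and *Myo1d* (0.99, 0.98 and 0.98), and to *Prelp* *Cebpd*, *Gpc6* and *Col5a1* (0.99, 0.99 and 0.98). *Bgn* was nearest to *Pdgfrb*, *Fbln5* and *Cdh11* (0.97, 0.95 and 0.94), and *Lum* to *Wif1*, *Fxyd1* and *Gas6* (0.97, 0.96 and 0.96). The nearest genes of *Aspn* were *Ift122*, *Adgra2* and *Pltp* (0.98 each), and those of *Ogn* were *Pts*, *Dcn* and *Mcrip1* (0.98 each).

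The partners of the family were taken from lists of other proteoglycans, of enzymes that build their chains, of collagens and of bound factors, for BMP2 against untreated C2C12-pMirn0 cells. Beside the 11.1% and 10.9% of all genes called higher, 8.4% were called lower at d3 and 10.5% at d6. Of the 7 other leucine-rich proteoglycan genes measured, *Epyc*, *Kera*, *Optc*, *Nyx*, *Chad*, *Podn* and *Ecm2*, limma called 0 in either direction at either day, and the mean intensity of each but *Podn* was at or below 50.3 in C2C12-pMirn0 and 53.2 in C2C12-pMirn378 cells in all groups. *Podn* lay between 135 and 264. At an unadjusted p under 0.05 there was 1 of the 7 at d3 and 0 at d6, beside 44.4% and 47.9% of all genes. Beyond this class, 8 of 23 other proteoglycan core proteins were called higher and 2 lower at d3, and 6 and 1 at d6. *Prg4*, the joint lubricant lubricin, went from a mean of 145 to 8695 at d3 (log2 5.90 ± 0.14, adjusted p 8.92e-19) and from 152 to 15658 at d6. The syndecan *Sdc3* went from 150 to 5450 at d3 (log2 5.21 ± 0.16) and the large chondroitin sulfate proteoglycan versican, *Vcan*, from 3132 to 11823 (log2 1.92 ± 0.06). *Gpc1* (log2 -0.87) and *Tgfbr3* (log2 -2.10) were the genes called lower at d3.

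Of the 16 enzymes of chondroitin and dermatan sulfate, 8 were called higher and 2 lower at d3, and 6 and 2 at d6. The genes called higher with the smallest adjusted p on both days were *Chst14* (log2 1.67 at d3) and *Dse* (1.52), which make dermatan sulfate from chondroitin, and the polymerizing factor *Chpf2* (1.15). *Chst15*, a chondroitin sulfotransferase, fell from a mean of 1001 to 166 at d3 and from 925 to 54.2 at d6, and *Chst13* had log2 ratios of -2.09 and -3.19. Of the 7 keratan sulfate genes 3 were called higher and 1 lower at d3, and 2 and 0 at d6. *Chst1*, which sulfates keratan chains, had log2 ratios of 2.10 and 1.97 and *B4galt1* of 0.95 and 0.69, while *B3gnt2* (0.73) was called higher and *B4galt4* (-1.71) lower at d3. Of the 5 measured enzymes of the common linker, limma called 0 at d3 and 1, *B3gat3* (log2 -0.73), lower at d6. At an unadjusted p under 0.05 there were 2 of the 5 at d3, beside 44.4% of all genes.

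Collagens and their assembly factors gave 15 of 24 genes called higher and 1 lower at d3, and 10 and 1 at d6. At d3 the smallest adjusted p values belonged to *Col6a3* (log2 1.91), the prolyl hydroxylase *P4ha2* (1.55) and the cross-linking enzyme *Lox* (1.58), and at d6 to *Col6a1* (1.54), *Col6a2* (1.30) and *Col5a1* (1.07). *Loxl1*, a relative of *Lox*, was called lower on both days (-0.83 and -1.28). Of the 9 growth factors and receptors that decorin or biglycan bind, 4 were called higher and 1 lower at d3, and 2 and 2 at d6. The innate receptor *Tlr2* had log2 ratios of 2.38 and 1.69, the endocytic receptor *Lrp1* 1.08 and 0.61, and *Tgfb2* 1.16 at d3. *Tgfb3* was called lower on both days (-0.85 and -1.35) and the HGF receptor *Met* at d6 (-0.80).

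**Figure D5:**
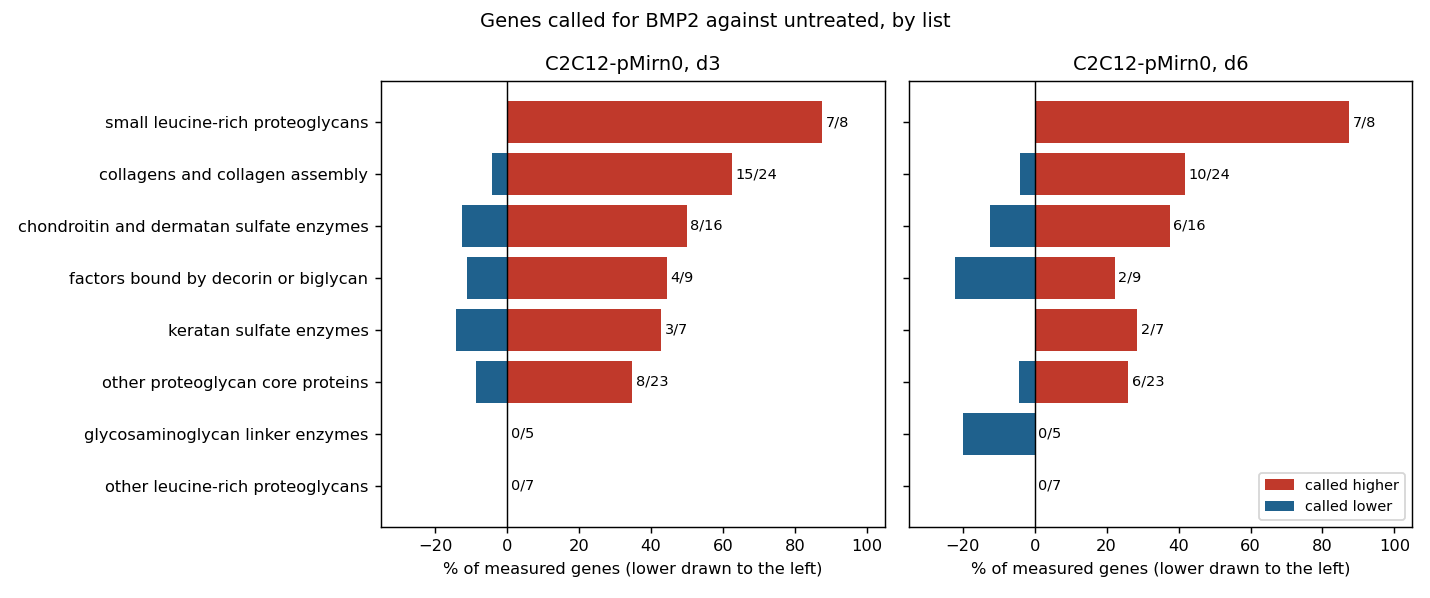
Share of the measured genes of each list called higher (red, to the right, with counts) or lower (blue, to the left) with BMP2 against untreated C2C12-pMirn0 cells at d3 and d6, in percent. The small leucine-rich proteoglycans show 7 of 8 genes higher on both days, the collagens 15 and 10 of 24, and the other leucine-rich proteoglycans 0 of 7.

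Between the lines with BMP2, 6 of the 91 measured partner genes were called at d3 (6.59%), where 4.38% of all genes were, and 8 at d6 (8.79%), where 2.85% of all genes were. At d3 they were the procollagen proteinase *Bmp1* (log2 0.72), *Col1a1* (0.78), *Sdc3* (0.78) and *Tgfb1* (0.68), higher in C2C12-pMirn378 cells, and *Met* (-0.70) and *Col18a1* (-0.77), lower. At d6 *Lox* (0.76), *Col1a1* (0.94), *Bmp1* (0.75), *Col6a3* (0.64), *Tgfb1* (0.67) and *Lrp1* (0.60) were higher and *Met* (-1.01) and *Col18a1* (-1.33) lower. Between the lines with BMP2 limma called 0 of the 16 chondroitin and dermatan sulfate enzymes, with 4 at an unadjusted p under 0.05 at d3 and 7 at d6. Of the 7 keratan sulfate enzymes 0 were called, with 3 and 2 at that p, and of the 5 linker enzymes 0, with 0 and 1. Over all genes 27.7% had an unadjusted p under 0.05 at d3 and 23.8% at d6.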

How the data were processed

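RNA of C2C12-pMirn0 and C2C12-pMirn378 cells was measured on 30 Affymetrix expression arrays of the mouse genome, 3 biological replicates for each of 10 groups. The authors deposited 1 intensity per probe set and array, not log-transformed. The authors' methods name the Command Console, R 2.4.1 with RMA and quantile normalization; the array medians of the deposited values ran from 68.0 to 82.7, so a final quantile step is not visible in them. Groups come from the sample labels. Symbols come from the platform table, where 34958 probe sets carry 1 symbol, 932 several and 9211 none, and promoters come from RefSeq (GRCm38.p6; 6 of 8 members have an entry).

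On log2 values, limma 3.58.1 in R 4.3.3 fitted the 10 group means, and contrasts were tested with eBayes (20 residual and 1.20 prior degrees of freedom) and Benjamini-Hochberg adjustment within a contrast over 45101 probe sets. The call of a gene takes 0.005 as the limit of the adjusted p and 0.6 as the smallest log2 change, which the study's methods used for line differences. The scripts were tested on simulated data. Alternatives were quantile normalization, scaling by the median of the brighter probe sets, an offset of 16, a floor of 50, brighter probe sets only, trended robust eBayes, array weights, the replicate block, the next brightest probe set, the compared groups only, and leaving out each array.

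Named genes are the 8 members, up to 3 called genes per partner list and direction with the smallest adjusted p, and the 3 genes with the highest r to each member; the genes of the list of other leucine-rich proteoglycans, and *Col6a3* at d6 between the lines, were added after their values were seen. The line difference in the change from d3 to d6 with BMP2 was added after values were seen. Members and lists were chosen with earlier results of these data known. The number of arrays limits the precision.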

Additional observations from a re-analysis of the deposited data

Results flagged for a closer look

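The BMP2 response of *Dcn* at d3 differed between the lines by a log2 difference of 0.76 in the test of the interaction (adjusted p 0.00359), with the stronger response in C2C12-pMirn378 cells. This call was lost in all 12 fits that left out 1 array (adjusted p 0.00603 to 0.0141), with the replicate block (0.00524), with the second probe set (0.165) and in the compared groups alone (0.0205). The change of *Lum* from d3 to d6 with BMP2 differed between the lines by a log2 difference of 1.65 (adjusted p 0.00260), with the larger rise in C2C12-pMirn378 cells. That test was added after the *Lum* values had been seen, and its call was lost in 10 of 12 fits that left out 1 array (adjusted p up to 0.0112). Outliers within a group were not tested, since each group has 3 arrays.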

How the results depend on the processing

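All counts of members called higher for BMP2 against untreated and for BMP2 against d0 stayed within 1.5 times of their values under every alternative run. In fits of the compared groups alone, which have few degrees of freedom, the count without BMP2 at d3 against d0 in C2C12-pMirn0 cells was 4, and 0 members were called for d6 against d3 with BMP2 in C2C12-pMirn0 cells in either direction, between the lines at d0, at d6 untreated and at d6 with BMP2, and for the interaction at d3; for the line difference in the change from d3 to d6 it was 2. With the next brightest probe set, 3 were called without BMP2 at d3 in C2C12-pMirn378 cells, and 0 between the lines at d6 untreated and for the interaction at d3. For the line difference at d3 untreated, 1 member was called lower with trended robust eBayes, the offset, brighter probe sets only, quantile normalization and the floor. At d6 untreated it was 0 with quantile normalization and with scaling. The interaction at d3 had 2 called higher with the floor. At d6 it had 1 called higher with trended robust eBayes, brighter probe sets only, quantile normalization and the floor, 2 with the offset, and 1 called lower with the offset and the floor. The line difference in the change from d3 to d6 had 2 with trended robust eBayes and the offset. Leaving out 1 array gave 0 to 1 members called higher for d6 against d3 in C2C12-pMirn0 cells and for the line difference in that change, and 0 in every fit between the lines at d6 untreated and for the interaction at d3. The cause was not tested.

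Some values changed sign in contrasts that were not called. Those furthest from 0 as reported were log2 ratios of 0.43 for *Dcn* at d6 against d3 and 0.40 for *Fmod* at d3 untreated against d0 in C2C12-pMirn378 cells, and of -0.37 for *Lum*, 0.28 for *Prelp* and 0.25 for *Aspn* between the lines at d0. For d6 against d3 with BMP2 these were *Bgn* (-0.032) and *Ogn* (-0.14) with quantile normalization and *Dcn* (-0.35) with its next probe set in C2C12-pMirn0 cells, and *Dcn* (-0.16) with its next probe set and *Prelp* (0.0066) with scaling in C2C12-pMirn378 cells. Between the lines at d0 they were *Aspn* (-0.71) and *Prelp* (-0.34) with the next probe set and *Prelp* (-0.10) with the floor, and at d6 with BMP2 *Ogn* (0.061) with quantile normalization. For the interactions they were *Ogn* at d3 (-0.00098 with array weights, -0.040 with the next probe set), *Bgn* at d6 (0.0017 with the next probe set) and *Fmod* in the change from d3 to d6 (-0.019 with scaling). Leaving out 1 array gave ranges across 0 for *Fmod* (-0.047 to 0.71) and *Omd* (-0.057 to 0.32) at d3 untreated against d0 and *Prelp* (-0.10 to 0.046) at d6 against d3 with BMP2 in C2C12-pMirn378 cells, for *Lum* (-0.62 to 0.027) and *Prelp* (-0.077 to 0.74) between the lines at d0, *Aspn* (-0.23 to 0.11) at d3 untreated and *Ogn* (-0.074 to 0.0084) at d6 with BMP2, and for *Ogn* (-0.060 to 0.060) in the interaction at d3 and *Fmod* (-0.047 to 0.080) in the change from d3 to d6.

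The labels name no batch behind the replicate numbers, and the numbers were not taken to pair the samples. Deviations of same-numbered arrays correlated from -0.17 to 0.23 (median 0.043), with 24 of 135 pairs over 0.1, against a median of -0.017 and 16 of 270 for other numbers. With the replicate block, 0 members were called between the lines at d6 untreated and 0 for the interaction at d3, in place of 1 and 1, and no other call of a member changed.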
